A study of Homo sapiens with 12 samples.

Results

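Heavy polysomal (HP) RNA of HCT116 cells treated with hnRNP U siRNA was compared with HP RNA of cells treated with control siRNA. The members of this comparison were the 3 siU HP libraries and the 3 siCtr HP libraries, chosen by their labels, out of 12 libraries in the series; the other 6 were total RNA of the same cultures. HCT116 is an established human colorectal cancer cell line, and the cells were wild-type apart from the siRNA. Each siRNA was used for 48 h with Lipofectamine RNAiMAX in 3 experiments, and each experiment gave 1 control and 1 hnRNP U siRNA library, which were compared as a pair. The labels describe HP samples as RNA from the fractions of a sucrose gradient that hold heavy polysomes, and the study's methods list more than 1 hnRNP U siRNA without saying which one was sequenced. The question was which mRNAs changed in the RNA on heavy polysomes when hnRNP U was silenced, across all expressed genes and in particular those with functions outside mitochondria.

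hnRNP U, also called SAF-A, is an abundant nuclear protein that binds both RNA and DNA. It is known for its part in pre-mRNA splicing and in the organization of chromatin with nuclear RNA. Polysomes are mRNAs that carry several ribosomes, and the heavier the polysome, the more ribosomes sit on the mRNA. The level of a gene in HP RNA therefore depends both on how much of its mRNA the cell holds and on how much of that mRNA is loaded with many ribosomes. Levels are given as CPM, the raw counts of a gene scaled by TMM to a common library size, and a log2 fold change is that of hnRNP U siRNA over control siRNA.

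The 6 HP libraries held 30305012 to 39761103 counts each. The epithelial markers EPCAM, CDH1, KRT8, KRT18 and KRT19 and the intestinal factor CDX2 were found in all 6, while VIL1 reached 1 count at most and CDX1 had 0. Among markers of other cell types PTPRC (leukocytes) had 0 counts, and COL1A2, PECAM1 and ALB (fibroblasts, endothelium, liver) had 4 counts at most, but COL1A1 (fibroblasts) and MAP2 (neurons) were detected. COL1A1 had 13.6 to 15.7 CPM with control siRNA and 6.33 to 8.24 CPM with hnRNP U siRNA, and MAP2 had 13.9 to 18.1 CPM and 5.08 to 6.42 CPM; their part in other results was not tested. Genes of the mitochondrial genome took 1.05% ± 0.18 (SD, n = 3) of the counts in control libraries and 1.24% ± 0.049 (SD, n = 3) in silenced libraries.

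HNRNPU itself, the target of the siRNA, stood at 1000, 1111 and 1042 CPM in the 3 control HP libraries and at 78.2, 71.3 and 73.5 CPM in the 3 hnRNP U siRNA HP libraries. All 3 silenced libraries were far below all 3 controls, and the log2 fold change was −3.82 (SE 0.05, with an edgeR adjusted p of 5.2e-38). The gene (ENSG00000153187) lies on the minus strand at chr1:244840638-244864560 of GRCh38, and its exons overlap those of COX20 on the other strand. HNRNPUP1, a processed pseudogene named after seeing its values, was also lower, from 0.837 to 0.0286 CPM, and its reads cannot be told apart with certainty from those of HNRNPU.

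Silencing was followed by changes of many genes in HP RNA, most of them small. Of 15920 genes tested, 9340 (58.7%) passed an adjusted p of 0.05 in edgeR's quasi-likelihood test with the experiment as a term, 4642 (29.2%) higher and 4698 (29.5%) lower with hnRNP U siRNA. The median size of change was 0.38 on the log2 scale among the higher genes and 0.44 among the lower ones. A change of at least 2-fold was seen for 1596 genes (10%), 841 higher and 755 lower, and of at least 4-fold for 295. The median log2 fold change over all genes tested was 0.01. The 3 libraries of one siRNA lay wholly above or below those of the other for 9212 genes (57.9%), and 9174 of the 9340 called genes moved in the same direction in each of the 3 experiments. CPM are shares of a library, so a lower level per cell and a lower share of HP RNA cannot be told apart, nor can less RNA per cell and fewer cells that hold it.

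**Figure D1:**
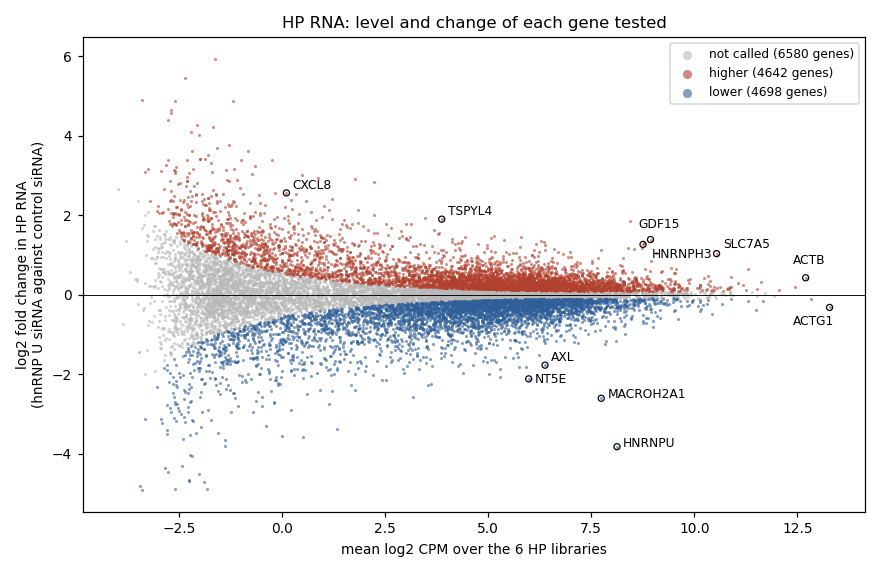
Each point is 1 of the 15920 genes tested in HP RNA, with its mean log2 CPM over the 6 HP libraries on the x axis and its log2 fold change, hnRNP U siRNA against control siRNA, on the y axis. Higher genes (adjusted p under 0.05 from edgeR) are red, lower ones blue and the rest grey; the widest fold changes belong to genes with few counts, and HNRNPU and MACROH2A1 stand lowest among well expressed genes.

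The strongest changes were at low levels. Of the 295 genes that changed by at least 4-fold, 139 were lncRNAs and 7 were well expressed, with mean log2 CPM at 3 or above. These 7 were HNRNPU, MACROH2A1, SLC1A3, THUMPD2, TMTC4, NT5E and OXSR1, and all of them were lower. The genes named next are protein-coding, lie outside mitochondria, reach the same level and moved the same way in all 3 experiments. Here and below, outside mitochondria means only that a gene was not on the list of mitochondrial genes used. The products of some of these genes may still be found in mitochondria.

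The 14 largest increases under these conditions ran from a log2 fold change of 1.90 (TSPYL4) to 1.37 (OR51B5), with SEs of 0.05 to 0.09 and adjusted p-values of 8.6e-16 or smaller (AOC2 had 8.6e-16 and UBXN6 3.1e-23 by edgeR). TSPYL4, a gene of the nucleosome assembly protein family (chr6:116249964-116254075, minus strand), had 8.02, 7.67 and 7.06 CPM with control siRNA and 28.3, 30.1 and 26.4 CPM with hnRNP U siRNA. Every silenced library was more than 3 times its own control. GDF15, a secreted stress-responsive cytokine of the TGF-beta superfamily (chr19:18374731-18389176, plus strand), had 403, 261 and 266 CPM with control siRNA and 760, 830 and 793 CPM with hnRNP U siRNA. The groups did not overlap, but the pair of experiment 1 differed by 0.92 on the log2 scale against 1.67 and 1.58 in the others, and its control was the highest of the 3. UPP1, the uridine phosphorylase of pyrimidine salvage, had 25, 19.1 and 19.2 CPM with control siRNA and 63.5, 61.1 and 52.0 CPM with hnRNP U siRNA (log2 fold change 1.48, SE 0.06).

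The other large increases included GPR3 (log2 fold change 1.78), a receptor that activates adenylate cyclase without a ligand, and ZNF589 (1.56), a zinc-finger gene. FAM120C rose by 1.77, UBXN6, a cofactor of the p97 ATPase, by 1.45, H2AC6, a histone H2A gene, by 1.43, and DHRS2, a short-chain dehydrogenase, by 1.43 on the same scale. RINL (1.45), THAP10 (1.41), the homeobox gene MKX (1.40) and the amine oxidase gene AOC2 (1.38) completed the group. Exons of UBXN6 overlap CHAF1A on the opposite strand, and exons of OR51B5, an olfactory receptor gene of the beta-globin region, overlap HBG2 on the same strand, so reads of these genes may be shared. In total RNA, the same 14 genes had log2 fold changes of 1.05 (AOC2) to 1.93 (FAM120C). The ratio of HP to total RNA did not pass the test with the experiment as a term for any of these genes.

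The 14 largest decreases ran from −2.60 (MACROH2A1) to −1.80 (PLCXD2), with SEs of 0.04 to 0.10 and adjusted p-values from 3.9e-34 (MACROH2A1) to 7.5e-19 (ABCC3) in edgeR's test. MACROH2A1, which encodes the histone variant macroH2A1 (chr5:135334381-135399914, minus strand), had 520, 529 and 536 CPM with control siRNA and 83.5, 90.9 and 86.6 CPM with hnRNP U siRNA, a 6.08-fold drop. SLC1A3, a glial-type glutamate transporter, had 19.3, 23.3 and 23.2 CPM with control siRNA and 3.92, 3.77 and 3.30 CPM with hnRNP U siRNA. NT5E, the cell-surface nucleotidase CD73 that makes adenosine, had 137, 135 and 124 CPM against 31.6, 32.0 and 27.7 CPM. In these 3 genes every silenced library lay far below every control, and the spread within each group was small beside the gap.

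Among the other decreases, OXSR1, a kinase that acts on cation-chloride cotransporters, fell by 2.06 on the log2 scale and CRIM1, a membrane protein that binds BMPs, by 1.99. TMTC4, an O-mannosyltransferase of the ER, fell by 2.25, ARL2BP, a binding partner of the ARL2 GTPase, by 1.97, and THUMPD2, which methylates spliceosomal RNA, by 2.26. RAPGEF1, an exchange factor for the GTPase RAP1, fell by 1.86, SYT1, a synaptotagmin, by 1.83, and GDA, guanine deaminase, from 106, 102 and 92.5 CPM to 29.1, 29.1 and 27.1 CPM. ABCC3, an organic anion exporter, PUDP, a nucleotide phosphatase, and PLCXD2, whose exons overlap PHLDB2 on the same strand, had log2 fold changes of −1.87, −1.80 and −1.80. In total RNA the 14 genes had log2 fold changes of −2.54 (SLC1A3) to −1.42 (THUMPD2), and HP/total passed the test for THUMPD2 and TMTC4. That call was lost for THUMPD2 without replicate 3 (adjusted p = 0.069 by edgeR) and for TMTC4 without the experiment term (adjusted p = 0.11) and without any 1 of the replicates (adjusted p of 0.14 to 0.33).

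**Figure D2:**
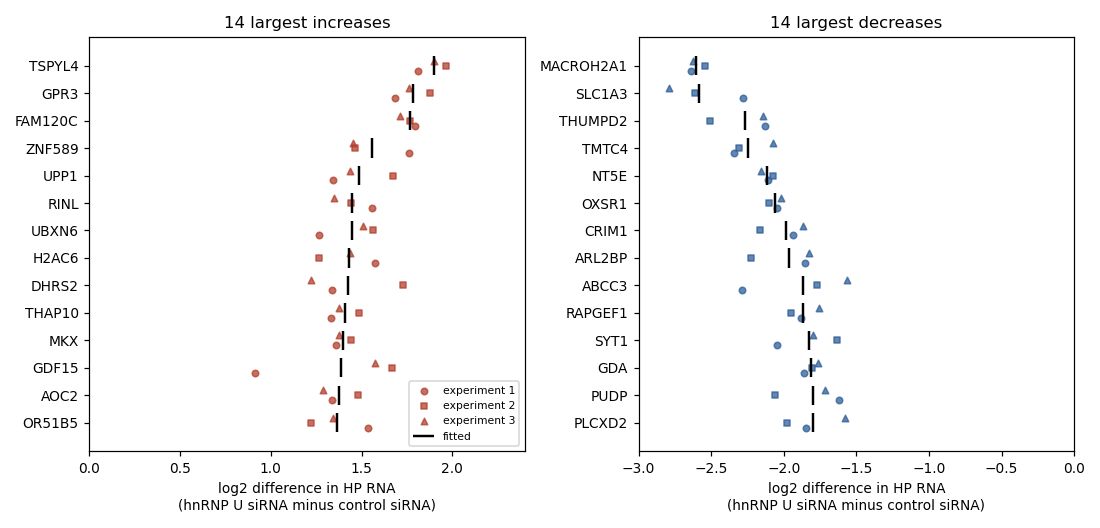
Log2 difference between hnRNP U siRNA and control siRNA in HP RNA for each of the 3 experiments (circles, squares and triangles) for the 14 largest increases (left) and the 14 largest decreases (right); the black bar is the fitted log2 fold change. No point crosses 0, and GDF15 in experiment 1 (0.92) is the point farthest from its own fit among the increases.

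Several of the large decreases carry a short sequence in their 3′ untranslated region (UTR) that pairs with bases 2 to 8, the seed, of one strand of an hnRNP U siRNA. An siRNA can lower mRNAs other than its target through its seed, in the manner of a microRNA. The methods list a sequence for each of 2 hnRNP U siRNAs and a control siRNA, and since the one sequenced is not named, all 6 strands were searched in the 3′ UTR of the canonical transcript (GENCODE release 44, strand of the mRNA only). The match of the guide strand of the first hnRNP U siRNA, written as DNA, is GTATGCT. It occurred in 7 of the 14 largest decreases and in 0 of the 13 largest increases that have an annotated 3′ UTR. Windows of 25 bases around these matches are shown because they are the sequences those 7 genes share, with the 7 matching bases in capitals.

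TMTC4, chr13:100603999-100604005, minus strand: ttcttctctGTATGCTgttgaccta
OXSR1, chr3:38255375-38255381, plus strand: ccttatgatGTATGCTaggttatgg
CRIM1, chr2:36550450-36550456, plus strand: agatacccaGTATGCTtaacgtgaa
ARL2BP, chr16:57253133-57253139, plus strand: cctatgaatGTATGCTgtgtgctag
ARL2BP, chr16:57253354-57253360, plus strand: tggctgtttGTATGCTttggtttag
SYT1, chr12:79449407-79449413, plus strand: tatataccaGTATGCTaaagattta
GDA, chr9:72250579-72250585, plus strand: gaatgttatGTATGCTtttttttct
PUDP, chrX:7049381-7049387, minus strand: tttcagaatGTATGCTtggtgagtc

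Over the 12729 tested genes with such a UTR, GTATGCT occurred in 7.31%. Its share was 18% (106 of 590) among genes lower by at least 2-fold in HP RNA, 13% among all lower genes, 5.16% among genes not called, 3.17% among higher genes and 1.56% (4 of 257) among genes higher by at least 2-fold. In the same order of classes, median 3′ UTR length was 1795, 1861, 1164, 959 and 642 bases, with 1319 bases over all genes. The match of the guide strand of the second hnRNP U siRNA, TTGTAGT, occurred in 14.2% of the genes lower by at least 2-fold and in 13.1% of all. That of the control siRNA guide, CCCAAAT, occurred in 14.6% and 15.2%. The passenger strands gave 14.9% against 11.4% (AGTTCTA), 2.37% against 2.58% (CTTTTCG) and 2.03% against 2.14% (GCCGGAC). A gene lowered by the control siRNA would appear here as higher. Among genes higher by at least 2-fold, the control guide match occurred in 19.5% (50 of 257) and the control passenger match in 4.67%. The passenger match of the first hnRNP U siRNA occurred there in 7%, and the matches of the second in 8.95% (guide) and 2.33% (passenger). Of the largest increases TSPYL4, ZNF589, RINL, UBXN6 and MKX hold the control guide match, and of the largest decreases PLCXD2. A match is a description of the sequence, and the part of seed pairing in these changes was not tested. MACROH2A1, SLC1A3, NT5E and ABCC3 hold no GTATGCT in this UTR. It also occurs in genes named below. Examples are EGFR, PKP4, PARD6B, MGAT4A, ARPC5, RAB1B, MAP2 and ZNF652, which were lower, and THOC5, which was higher.

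Changes were also ranked by their size in CPM, among protein-coding genes outside mitochondria; beside HNRNPU, the genes with the largest gains and losses were of several classes. ACTB, the beta-actin gene, had 6061, 5522 and 5703 CPM with control siRNA and 7782, 7998 and 7417 CPM with hnRNP U siRNA. ACTG1, the gamma-actin gene, had 11278, 10999 and 11074 CPM with control siRNA and 8965, 9073 and 8685 CPM with hnRNP U siRNA. The 2 cytoplasmic actins moved in opposite directions without overlap between groups, by 0.42 (ACTB) and −0.32 (ACTG1) on the log2 scale. HMGA1, a chromatin protein that binds AT-rich DNA, gained 1126 CPM (log2 fold change 0.64). SLC7A5, the light chain of the LAT1 transporter of large neutral amino acids, gained 1086 CPM and HSP90AA1, the stress-inducible HSP90, 766 CPM. EEF2, the elongation factor that moves the ribosome along the mRNA, gained 687 CPM and KRT19 576 CPM. Among the losses the mean differed by −748 CPM for HNRNPA2B1, −580 CPM for GAPDH, −479 CPM for EIF4G2, a translation initiation factor, and −381 CPM for PKM, pyruvate kinase. Although large in CPM, the changes of GAPDH and PKM were small in proportion, with log2 fold changes of −0.12 (SE 0.04, adjusted p = 0.0093) and −0.17 (SE 0.04, adjusted p = 0.0003 by edgeR).

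Gene groups were read from 48 lists by function, none of them of mitochondrial proteins. Each list is described by how many members passed the test in each direction and by its median log2 fold change, beside the 29.2% higher, 29.5% lower and median of 0.01 over all genes. Protein-coding genes, of which most lists consist, were 29.2% higher and 34.6% lower. A list count in HP RNA does not separate mRNA level from ribosome loading. In total RNA integrin and focal adhesion genes were 3 higher and 24 lower, and integrated stress response genes 18 and 1. Mitosis genes were 4 higher and 36 lower there, Hippo genes 4 and 16, and TGF-beta genes 11 and 22. Ribosomal protein genes differed between HP and total RNA, as given below. Up to 4 called members of a list are named by the size of their change; ATF4, ASNS, HSPA1A, YAP1, WWTR1, CCN1, CCN2, HBEGF, EREG, DUSP6, SPRY2, SPRY4, MTOR, SMAD3, SMAD4, BMPR2, DKK1, AXIN2, MYC, EGR1, BTG2 and CDH1 are named for their place in a pathway and were chosen after their values were seen.

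**Figure D3:**
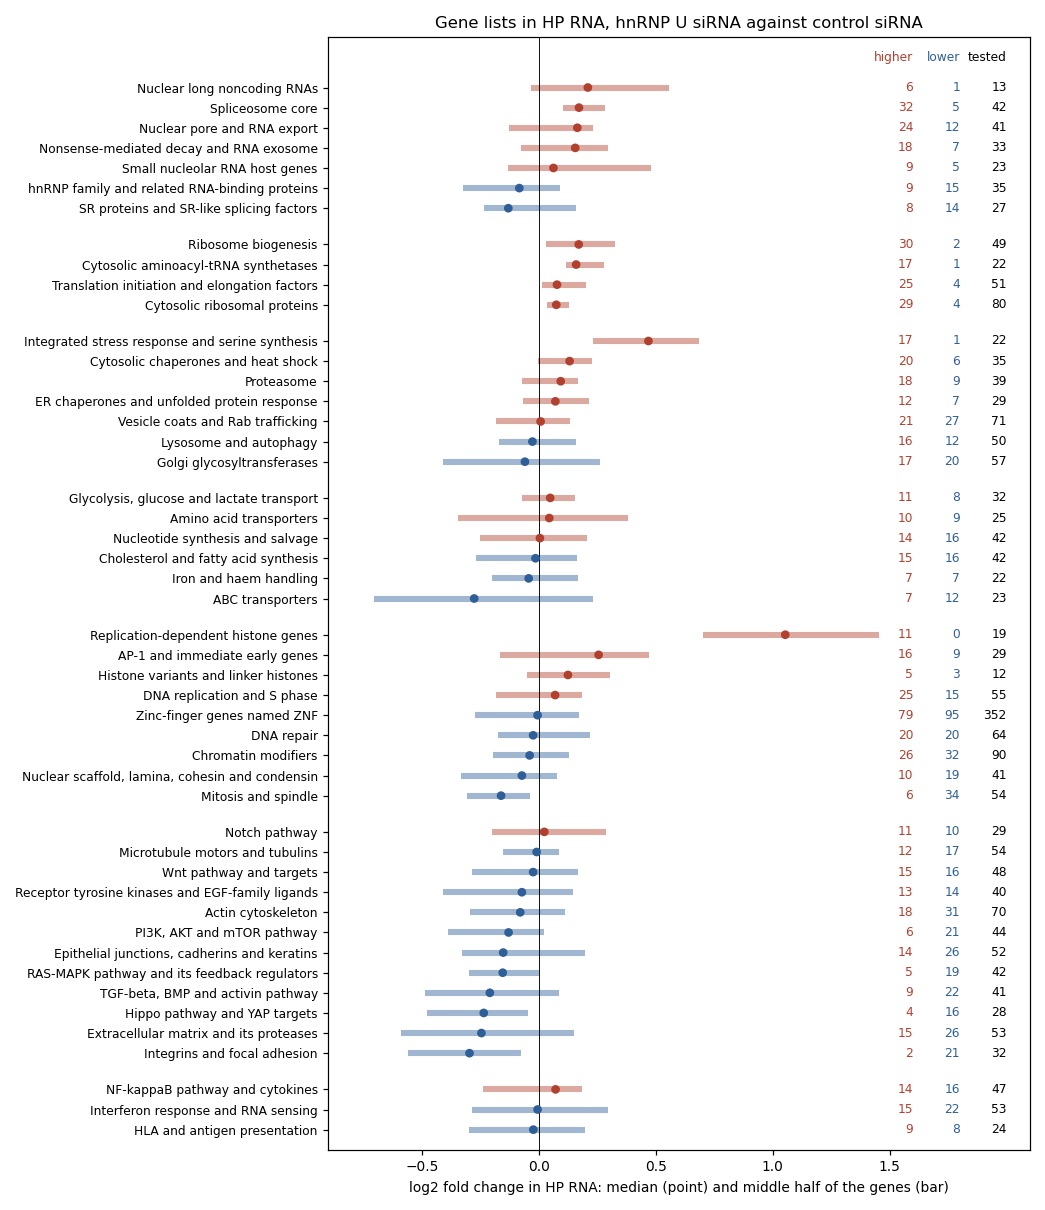
Median log2 fold change in HP RNA (point) and the range from its lower to its upper quartile (bar) for 48 gene lists, grouped by theme, hnRNP U siRNA against control siRNA; the columns at the right count members higher, lower and tested. The median of integrins and focal adhesion genes is −0.30 and that of integrated stress response genes 0.47; the replication-dependent histone genes (1.05) are only the 19 of 61 that passed the filter on low counts, some of them through their higher level with hnRNP U siRNA.

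Genes of RNA processing moved in both directions. In the spliceosome core 32 of 42 genes were higher and 5 lower, with a median of 0.17, among them SF3A3 of the U2 snRNP at 0.48. The exceptions were large: SNRPD3, an Sm protein of the spliceosomal snRNPs, had 74.8, 91.3 and 78.3 CPM with control siRNA and 35.1, 37.9 and 33.5 CPM with hnRNP U siRNA (log2 fold change −1.20), and PRPF6 of the U4/U6.U5 tri-snRNP fell by 0.56. U2AF1, which recognizes the 3′ splice site, rose by 1.17, but GRCh38 holds a near-identical copy of this gene, so its count is uncertain.

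hnRNP genes other than HNRNPU and related RNA-binding proteins were 9 higher and 15 lower of 35, with a median of −0.08. HNRNPH3 had 273, 289 and 275 CPM with control siRNA and 678, 702 and 633 CPM with hnRNP U siRNA, well over the spread of either group. Its log2 fold change was 1.26 (SE 0.04, adjusted p = 1.1e-24 by edgeR), and HNRNPUL2, a paralogue of HNRNPU, rose by 0.82. HNRNPDL fell by 0.86. SR proteins and SR-like splicing factors were 8 higher and 14 lower of 27, with SRSF8 (0.64) and the SR protein kinase CLK1 (0.55) higher and SRSF2 (−0.43) and SRSF10 (−0.39) lower.

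Nonsense-mediated decay and exosome genes were 18 higher and 7 lower of 33 (median 0.16), led by the decay factors SMG8 (0.79), UPF3A (0.73) and UPF3B (0.68) and the exosome helicase SKIC2 (0.59). Nuclear pore and RNA export genes were 24 higher and 12 lower of 41. In that list subunits of the THO export complex differed from each other, with THOC1 at −1.18 and THOC7 at −0.71 but THOC5 at 0.55, and NUP43 of the pore fell by 0.77.

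Genes of the translation machinery were more often higher than lower, by small amounts. Ribosome biogenesis genes were 30 higher and 2 lower of 49 (median 0.17), led by RRP12 (0.83), RRP9 (0.63), UTP14A (0.54) and RIOK2 (0.50). Cytosolic aminoacyl-tRNA synthetases, which charge tRNAs with amino acids, were 17 higher and 1 lower of 22 (median 0.16), with AIMP2 at 0.48, MARS1 and YARS1 at 0.39 and VARS1, the valine enzyme, lower at −0.53. Cytosolic ribosomal proteins were 29 higher and 4 lower of 80, but with a median of 0.07. In total RNA 12 ribosomal protein genes were higher and 19 lower of 80, against 29.1% and 30.6% of all genes. HP/total was higher for 8 and lower for 0, and it passed the test for 0.49% of all genes. The number of HP/total calls over all genes depended on the fit, as given later.

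Among translation factors, 25 of 51 were higher and 4 lower. EIF4A2, a paralogue of the helicase of the cap-binding complex, had 270, 242 and 239 CPM with control siRNA and 559, 560 and 535 CPM with hnRNP U siRNA. It more than doubled in each experiment, and its log2 fold change was 1.14 in HP RNA and 0.73 in total RNA (HP/total 0.44, SE 0.06, adjusted p = 0.00018 by edgeR). EIF5B, which joins the ribosomal subunits, rose by 0.56. EIF3C was higher by 0.86, with a count that is uncertain because of its near-identical copy EIF3CL. RPL41 (0.58) and RPS10 (0.40) had 1.96 and 8.66 CPM with control siRNA, low for ribosomal protein genes, and related sequences elsewhere in the genome make their counts uncertain too.

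Genes of the integrated stress response and serine synthesis were 17 higher and 1 lower of 22, with a median of 0.47 and 5 members higher by at least 2-fold. This response is set off by phosphorylation of eIF2 and works through the factor ATF4, itself 0.50 higher. DDIT4, an inhibitor of mTORC1, had 211, 138 and 106 CPM with control siRNA and 340, 353 and 266 CPM with hnRNP U siRNA. DDIT3, the factor CHOP, rose by 1.10, and SLC3A2 and SLC7A5, which together form an amino acid transporter, by 1.04 and 1.03. CHAC1, which degrades glutathione, had 46.5, 18.9 and 13.1 CPM with control siRNA and 54.8, 53.4 and 44 CPM with hnRNP U siRNA. Its groups overlapped, control experiment 1 was the highest control for CHAC1, DDIT4, DDIT3 and GDF15 alike, and the call of CHAC1 was lost when the spread shared across genes was fitted robustly (adjusted p = 0.17 by edgeR). ASNS, asparagine synthetase and also a target of ATF4, was the member that fell, by 0.54.

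Chaperones split by gene. Of cytosolic chaperones and heat shock genes 20 were higher and 6 lower of 35, HSPA1B at 0.57 (its near-identical copy HSPA1A had 0.51) and HSPB8 at −0.90. In the ER 12 were higher and 7 lower of 29, HSP90B1 at 0.46 and DNAJB9, a co-chaperone of BiP, at −0.85. Proteasome genes were 18 higher and 9 lower of 39, with PSMD1 at 0.50 and PSMB7 at 0.32 against PSME4 at −0.52 and PSMD7 at −0.34. Lysosome and autophagy genes were 16 higher and 12 lower of 50, the protease gene CTSL at 0.84.

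In the secretory pathway, vesicle coats and Rab GTPases were 21 higher and 27 lower of 71. RAB27B fell by 1.15, RAB1B by 0.71 and SEC23A of the COPII coat by 0.63. Golgi glycosyltransferases were 17 higher and 20 lower of 57, with 5 lower by at least 2-fold. Among them, MGAT4A, which branches N-glycans, had 7.99, 8.58 and 9.29 CPM with control siRNA and 2.81, 2.48 and 2.91 CPM with hnRNP U siRNA, and ST6GALNAC2, a sialyltransferase, fell from 1.57 to 0.359 CPM on average. FUT3, the Lewis fucosyltransferase, rose by 1.29 from 0.336 CPM.

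Metabolic lists held single genes that moved far. Nucleotide synthesis and salvage had 14 higher and 16 lower of 42, and its extremes were salvage enzymes: UPP1 at 1.48 and NT5E and GDA at −2.12 and −1.82, with CTPS1, CTP synthase, at −0.81. Cholesterol and fatty acid genes had 15 higher and 16 lower of 42, where PMVK (−1.09) and IDI1 (−0.92) of the mevalonate pathway and SREBF2 (−0.79), the regulator of cholesterol synthesis, were the lowest. ABC transporters had 7 higher and 12 lower of 23 (median −0.28), with ABCA3, the phospholipid transporter of surfactant, falling from 17.7, 13.4 and 15 CPM to 3.61, 3.50 and 4.59 CPM, while ABCF3 rose by 0.96. Glycolytic genes had 11 higher and 8 lower of 32, the largest being ENO3 (0.71) and ALDOC (0.61), amino acid transporters 10 and 9 of 25, and iron and haem genes 7 and 7 of 22, with HMOX2 at 0.43 and HFE at −0.48.

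Replication-dependent histone genes were mostly too low to test. Of the 61 replication-dependent histone genes 19 passed the filter on low counts, 11 of them were higher, 0 lower and 9 higher by at least 2-fold, with a median of 1.05. H3C10 had 0.718, 0.855 and 1.13 CPM with control siRNA and 2.81, 2.77 and 3.16 CPM with hnRNP U siRNA, and H2AC6 4.44, 5.51 and 4.66 CPM against 13.3, 13.3 and 12.7 CPM. Levels were low throughout, and H3C1 had 0.0326, 0.0295 and 0.125 CPM in the control libraries. The mRNAs of these genes end in a stem-loop rather than a poly(A) tail, and the libraries were made from poly(A) RNA. A gene that passed the filter only through the group where it is high had to differ, so these counts describe the 19 and not the family. Among variant histones both macroH2A genes fell, MACROH2A1 by 2.60 on the log2 scale and MACROH2A2 by 1.10.

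Mitosis and spindle genes were 34 lower and 6 higher of 54, with a median of −0.16 and none changed by 2-fold. ESPL1, the separase that cuts cohesin, fell by 0.72, the kinetochore gene SPC25 by 0.59, BIRC5, survivin, by 0.56 and ASPM by 0.54. DNA replication genes did not share this direction, with 25 higher and 15 lower of 55, MCM5 of the replicative helicase at 0.45 and RFC5 of the clamp loader at 0.54, against CCNE2, cyclin E2, at −1.18 and LIG1, DNA ligase 1, at −0.68. DNA repair genes were 20 higher and 20 lower of 64, the base excision gene OGG1 at 0.96 and FANCC at −0.82.

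Nuclear scaffold, lamina, cohesin and condensin genes, were 10 higher and 19 lower of 41. SATB1, a matrix attachment factor, fell by 1.18 from 2.20 CPM, SYNE2 of the nuclear envelope by 0.85 and TMPO by 0.66, and SMC1A of cohesin rose by 0.52. Chromatin modifiers were 26 higher and 32 lower of 90, with the acetyltransferase KAT2B at −1.55 and the heterochromatin protein CBX5 at 0.73. Zinc-finger genes named ZNF were 79 higher and 95 lower of 352, ZNF652 at −1.69 and ZNF589 at 1.56.

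Cell adhesion genes were mostly lower. Of 32 genes of integrins and focal adhesions 21 were lower and 2 higher, with a median of −0.30 and 6 lower by at least 2-fold. ITGB8, an integrin subunit that activates TGF-beta, had 10.2, 10.9 and 10.7 CPM with control siRNA and 3.10, 3.18 and 2.88 CPM with hnRNP U siRNA. TNS4, a tensin of focal adhesions, had 103, 87.9 and 102 CPM with control siRNA and 37.6, 37.3 and 42.4 CPM with hnRNP U siRNA, and TNS3 fell by 1.47. In both tensins and in ITGB8 the groups were far apart beside their spread. These are long genes, with a median span of 85807 bases against 33458 over all protein-coding genes tested, and span moves with the direction of change as described later.

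Extracellular matrix genes and their proteases were 26 lower and 15 higher of 53 (median −0.25). LOXL4, a lysyl oxidase, fell by 1.97 and COL7A1, the collagen of anchoring fibrils, by 1.69, both from a mean of under 4 CPM. SDC4, a heparan sulfate proteoglycan, had 59.9, 45.9 and 50.8 CPM with control siRNA and 132, 128 and 128 CPM with hnRNP U siRNA. Epithelial junction genes were 26 lower and 14 higher of 52, with the keratin KRT80 at −1.52, the plakophilin PKP4 at −1.34 and the polarity gene PARD6B at −1.32, and the cadherin CDH1 at −0.05 was not called. Actin cytoskeleton genes were 31 lower and 18 higher of 70, with ARPC5 of the Arp2/3 complex at −1.10 and the guanine nucleotide exchange factor ARHGEF2 at 1.11. Microtubule motors and tubulins were 17 lower and 12 higher of 54, with MAP2 at −1.48 and KIF5C, a kinesin heavy chain, at 1.13.

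The Hippo pathway, which restrains the coactivators YAP and TAZ, was 16 lower and 4 higher of 28 (median −0.24). LATS2, a kinase that inactivates YAP, had 24.6, 24.5 and 25.9 CPM with control siRNA and 9.89, 10.0 and 11.5 CPM with hnRNP U siRNA. The coactivator genes were lower as well, YAP1 at −0.35 and WWTR1 (TAZ) at −0.43, as were PTPN14 (−1.35) and the atypical cadherin FAT4 (−1.86). Of YAP target genes AXL and CCN1 were lower (−1.77 and −0.44) and CCN2, at 0.05, was not called. The list has the longest genes of those described, with a median span of 104285 bases. The siRNA seed match GTATGCT occurs in the 3′ UTRs of LATS2, PTPN14 and FAT4, and AGTTCTA occurs 6 times in that of AXL. The part of seed pairing in these changes was not tested.

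Among growth factor receptors and ligands the largest changes were in opposite directions. AXL, a receptor tyrosine kinase, had 156, 154 and 152 CPM with control siRNA and 45.4, 44 and 45.9 CPM with hnRNP U siRNA. EGFR had 80.9, 86.5 and 83.9 CPM with control siRNA and 26.2, 28.3 and 29.4 CPM with hnRNP U siRNA. AREG, amphiregulin, a ligand of EGFR, had 335, 238 and 284 CPM with control siRNA and 626, 704 and 753 CPM with hnRNP U siRNA. None of the 3 genes overlapped between groups, at log2 fold changes of −1.77, −1.58 and 1.29. HBEGF (0.52) and EREG (0.43), other ligands of EGFR, were higher too. The whole list was balanced, with 13 higher and 14 lower of 40.

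Downstream of the receptors, RAS-MAPK genes were 19 lower and 5 higher of 42 (median −0.16) and PI3K, AKT and mTOR genes 21 lower and 6 higher of 44 (median −0.13). The kinase BRAF fell by 0.82 and RPS6KA3 by 0.61, while the ERK-responsive factor ETV4 rose by 0.56 and the feedback regulators DUSP6, SPRY2 and SPRY4 were lower (−0.23, −0.52 and −0.36). Among PI3K genes the phosphatase INPP4B fell by 1.20, the transcription factor FOXO3 by 0.95 and TSC1, an inhibitor of mTORC1, by 0.89. MTOR (0.10) was not called.

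TGF-beta, BMP and activin genes were 22 lower and 9 higher of 41 (median −0.21). The ligand TGFB1 had 83.7, 68.7 and 87.3 CPM with control siRNA and 159, 154 and 172 CPM with hnRNP U siRNA, so it about doubled, while TGFB2 fell by 1.43 from 1.04 CPM. The signal transducers SMAD3 (−0.28) and SMAD4 (−0.65) and the receptor BMPR2 (−0.76) were lower. Wnt genes were 15 higher and 16 lower of 48, with the receptor FZD6 at −1.04, the Wnt-inactivating esterase NOTUM at −0.88 and the inhibitor DKK1 at 0.80, and AXIN2, a target gene of the pathway, at −0.38. Notch genes were 11 higher and 10 lower of 29, with NOTCH3 falling from 42.8, 42.7 and 51.5 CPM to 15.3, 17 and 21.8 CPM.

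Immediate early genes were 16 higher and 9 lower of 29 (median 0.26), among them JUN (0.67), MYC (0.64), EGR1 (0.60) and ATF3 (0.67), with BTG1 at 0.75 and BTG2 at −0.50. Immune lists were mixed. Interferon genes were 15 higher and 22 lower of 53: OAS3, a sensor of double-stranded RNA, had 70.1, 76.5 and 72.8 CPM with control siRNA and 24.9, 25.7 and 24.0 CPM with hnRNP U siRNA, and IFI27 rose by 2.01 from 0.312 CPM. HLA and antigen presentation genes were 9 higher and 8 lower of 24, with the stress ligand MICB at 0.74. NF-kappaB pathway genes and cytokines were 14 higher and 16 lower of 47, and the 4 that rose by at least 2-fold were chemokines. CXCL8 had 0.391, 0.442 and 0.401 CPM with control siRNA and 2.36, 2.54 and 2.42 CPM with hnRNP U siRNA, and CXCL1, CXCL2 and CXCL3 rose by 1.38, 1.97 and 1.76 from means of under 0.4 CPM. CXCL2 had 0.163, 0 and 0.125 CPM and CXCL3 0.163, 0.0884 and 0.225 CPM with control siRNA, near the floor. A gene that passed the filter on low counts only through the group where it is high had to differ. The count of 4 therefore describes these genes and not the list.

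Long noncoding RNAs detected in HP RNA were more often higher than lower. Of 2318 lncRNA genes tested 34.5% were higher and 9.23% lower (median 0.39), against 29.2% and 34.6% of protein-coding genes (median −0.03). Among the better expressed lncRNAs (mean log2 CPM at 1 or above) the shares were 55.4% and 16.4% of 383. The other 1935 were under that level, with 30.3% higher and 7.8% lower. A lncRNA that passed the filter on low counts only through the group where it is high had to differ. The shares over all 2318, and the 508 lncRNAs among the 841 genes higher by at least 2-fold, therefore describe the tested lncRNAs only. In total RNA 36.3% of lncRNAs were higher and 12.9% lower (median 0.30). MALAT1, a nuclear RNA of splicing speckles, had 3.59, 2.83 and 4.06 CPM with control siRNA and 8.44, 6.74 and 6.32 CPM with hnRNP U siRNA. Its silenced libraries were all above its controls, by 1.02 on the log2 scale, against 0.22 in total RNA. NEAT1, the RNA of paraspeckles, rose by 0.55 in HP RNA and 0.45 in total RNA. Of the 13 nuclear lncRNAs in the list 6 were higher and 1 lower, and small nucleolar RNA host genes were 9 higher and 5 lower of 23, led by SNHG30 (1.09) and SNHG3 (0.86). Exons of SNHG3 overlap those of RCC1 on the same strand, so its reads may be shared. Whether RNA outside polysomes entered the heavy fractions to a different extent was not tested.

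The direction of change also moved with the length of the gene. Protein-coding genes of the shortest quartile of span, 207 to 13625 bases from start to end of the gene, were 38.5% higher and 22% lower. In the following quartiles 31.8% and 27.9% were higher and 31% and 38.3% lower. In the longest quartile, 80301 to 2304997 bases, 18.6% were higher and 47% lower, and the median fell from 0.08 to −0.15. By the summed length of exons the order was the same, from 38.2% higher and 21.6% lower in the shortest quartile to 22.3% and 45.3% in the longest. Genes with long exons but a short span, split at the medians of 5415 and 33458 bases, were 31.5% higher and 32.1% lower, and those with short exons but a long span 29% and 33.7%. The quartiles of span had nearly the same shares in total RNA, with 35% higher and 23.7% lower in the shortest and 21.1% and 46.2% in the longest. Among the nuclear chromosomes the share of lower protein-coding genes was smallest on chromosome 19 (25.1%, with 32.6% higher) and greatest on chromosome 21 (44.5%, with 20% higher).

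**Figure D4:**
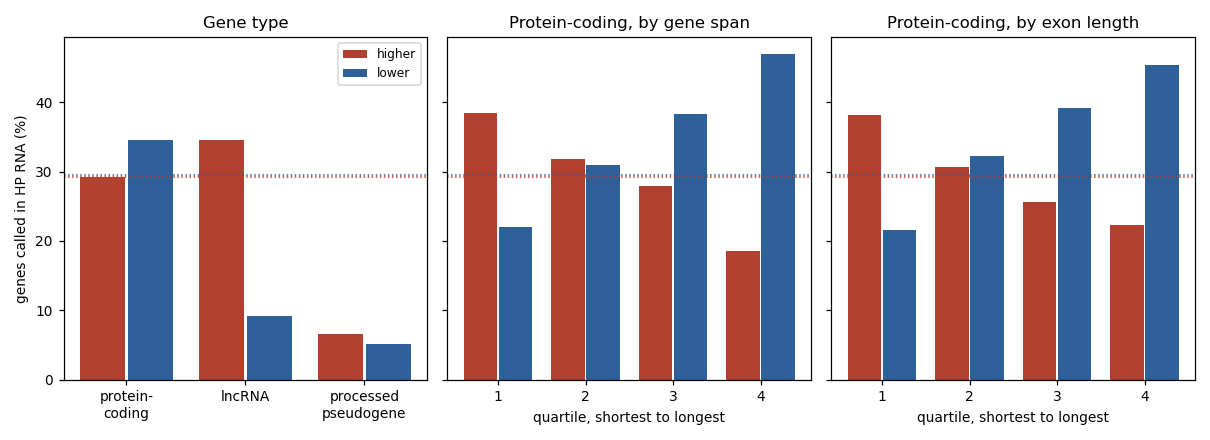
Percent of genes higher (red) and lower (blue) in HP RNA with hnRNP U siRNA, by gene type and, for protein-coding genes, by quartile of gene span and of exon length; dotted lines are the shares over all 15920 genes (29.2% and 29.5%). The share of lower genes climbs from 22% to 47% over the quartiles of span, and lncRNAs have the lowest ratio of lower to higher genes among the classes drawn.

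HP RNA was set beside total RNA to see which genes changed on heavy polysomes by more or less than in the cell. The HP and total libraries come from the same cultures, so their values are given side by side. The main test of HP/total had a term for the experiment but none for the culture, so it left this pairing out. HP/total, the difference between the log2 fold changes in the 2 kinds of RNA (fitted over all 12 libraries, so it may differ slightly from their subtraction), passed the test for 78 genes (0.49%), 48 higher and 30 lower. With DESeq2's size factors in place of TMM the split was 26 higher and 37 lower, with the culture as the block it was 97 and 43, without the experiment term 13 and 13, and without replicate 3 it was 15 and 3. Of the 21 named genes with an HP/total call, 6 (HNRNPU, SNHG3, EIF4A2, TBRG1, NAPB and PTAR1) kept it under all 8 alternatives and 15 lost it under at least 1. Of the 78, 13 were mitochondrial, 10 of these genes of the mitochondrial genome, and 37 higher and 28 lower lay outside mitochondria.

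Among mRNAs that rose more on heavy polysomes, CAPRIN2, an RNA-binding protein, had 12.2, 10.3 and 10.4 CPM with control siRNA and 27.1, 27.8 and 27.8 CPM with hnRNP U siRNA in HP RNA. Its log2 fold change was 1.33 in HP RNA and 0.76 in total RNA (HP/total 0.60, SE 0.09, adjusted p = 0.00076 by edgeR). TBRG1, a growth regulator, rose by 0.63 in HP RNA and had 0.09 in total RNA, and INKA2, a kinase inhibitor, 0.51 and −0.06. Of 8 ribosomal protein genes with a higher HP/total, RPS10 (0.50) had the largest value. The calls of INKA2 and RPS10 were lost with DESeq2 (adjusted p of 0.12 and 0.085), with DESeq2's size factors (0.061 and 0.053), without the experiment term (0.12 and 0.073) and without any 1 of the replicates, and that of CAPRIN2 without replicate 3 (0.14). MTND2P28 and MTATP6P1 (HP/total 0.94 and 0.58) are nuclear copies of mitochondrial genes on chromosome 1, so that their reads and those of the mitochondrial genome cannot be told apart with certainty. The other genes with a raised ratio named here were the noncoding MALAT1 (0.83), SNHG3 (0.69) and HERPUD2-AS1 (0.56), of which MALAT1 lost the call without the experiment term (adjusted p = 0.19 by edgeR) and without replicate 1 (0.14). Reads of SNHG3 may be shared with RCC1, whose exons it overlaps on the same strand.

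Among genes that fell more on heavy polysomes, HNRNPU came first, with −3.82 in HP RNA and −2.70 in total RNA (HP/total −1.09, SE 0.07, adjusted p = 1.8e-08 by edgeR). NAPB, which helps recycle SNARE complexes, had 10.4, 11 and 10.1 CPM with control siRNA and 3.50, 3.27 and 3.87 CPM with hnRNP U siRNA in HP RNA, so that the log2 fold change of −1.56 stood against −0.59 in total RNA. PTAR1, a prenyltransferase subunit, had −1.34 and −0.75, and THUMPD2 −2.26 and −1.42. FBXO4, an F-box protein, had −2.14 and −1.35, FAH, the last enzyme of tyrosine breakdown, −1.57 and −0.89, and FAM135A −1.14 and −0.52. The HP/total calls of FBXO4, FAH and FAM135A were lost without replicate 2 (adjusted p of 0.21, 0.1 and 0.17 by edgeR) and without replicate 3 (0.45, 0.45 and 0.19), and that of FAH also without the experiment term (0.12). GTATGCT occurs 2 times in the 3′ UTR of NAPB and 3 times in that of PTAR1, and 0 times in those of THUMPD2, FBXO4, FAH and FAM135A. HPS1, a subunit of an exchange factor for lysosome-related organelles, was higher in total RNA (0.78) and not called in HP RNA (0.16, adjusted p = 0.074 by edgeR), but it was called in HP RNA with all 12 libraries in the fit (0.19, adjusted p = 0.025) and without replicate 1 (0.20, adjusted p = 0.044).

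**Figure D5:**
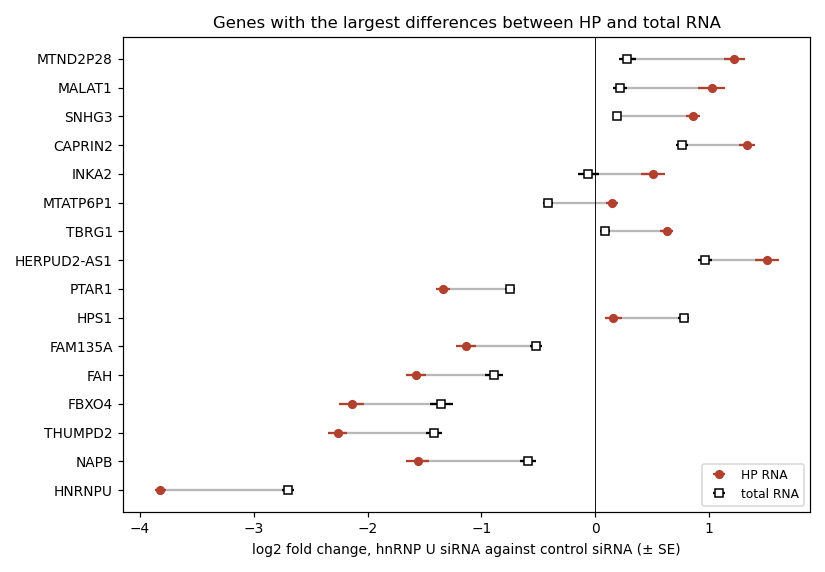
Log2 fold change, hnRNP U siRNA against control siRNA, in HP RNA (filled circles) and total RNA (open squares) for up to 8 genes in each direction with the largest HP/total outside mitochondria; bars are SEs of the fit. For 8 genes the circle lies to the right of the square and for 8, HNRNPU among them, to the left.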

How the data were processed

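Poly(A)-selected, directional libraries of total and HP RNA were sequenced by the authors as single reads; the submitters' processing notes name CASAVA 1.8, STAR and hg38, and the methods name Trim Galore and GENCODE. The version of STAR and the strand setting of the counting are not given in the sources used here. The authors deposited raw counts per gene for 62703 identifiers, of which 62639 were found in GENCODE release 44 and took their coordinates and lengths from it. Starting from these deposited counts, genes were kept with filterByExpr (minimum count 10, over the 4 conditions of the 12 libraries), which left 15920. The 6 HP libraries were fitted with edgeR 4.0.16 (R 4.3.3) by the quasi-likelihood method with TMM factors and terms for experiment and siRNA, and p-values were adjusted by Benjamini-Hochberg over all genes, with a threshold of 0.05. The fit left 2 residual degrees of freedom, and the spread of each gene was moderated with 34.9 prior degrees of freedom. HP/total was tested as an siRNA by fraction interaction over the 12 libraries, with the experiment as a term.

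Pairing comes from the experiment named in the sample titles. The deviations from the group means correlated between same-numbered control and hnRNP U siRNA HP libraries (0.31, 0.45 and 0.43) and at −0.42 to 0.06 otherwise. Each gene was centred on the mean of its own group, so positive values for the pairs partly force the others down. The paper describes the sequenced experiments as independent, and its experiments in general as biological replicates. It does not spell out how the cultures of the sequenced experiments were separated. The p-values therefore cover only the spread among these samples, and for each gene that spread is drawn mostly from all genes together.

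Genes were named by a rule: HNRNPU, the 14 largest increases and decreases among protein-coding genes outside mitochondria with mean log2 CPM at 3 or above and 1 direction in the 3 experiments, the 6 largest gains and losses in CPM, up to 4 called genes per list, and up to 8 HP/total genes each way. The members and lists were chosen with earlier results of these data known, and some genes and 1 list are not reported here. Alternatives were the fit without the experiment, DESeq2 1.42.0, other scaling factors and filters, all 12 libraries in 1 fit, each experiment left out and a robust shared spread, the last chosen after seeing the data. The fitting was tested on simulated data.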

Additional observations from a re-analysis of the deposited data

Results flagged for a closer look

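Results were taken up here where the effect of hnRNP U siRNA differed between HP and total RNA by edgeR's interaction test; groups of 3 libraries were too small for a test of single outlying samples. Among named genes with a larger effect in HP RNA in the upward direction, HP/total was 0.94 for MTND2P28, 0.83 for MALAT1, 0.69 for SNHG3, 0.60 for CAPRIN2, 0.60 for INKA2, 0.58 for MTATP6P1, 0.57 for TBRG1 and 0.56 for HERPUD2-AS1 on the log2 scale. Members of gene lists with the same direction were RPS10 (0.50), EIF4A2 (0.44) and CLK1 (0.41). In the downward direction it was −1.09 for HNRNPU, −0.94 for NAPB, −0.82 for THUMPD2, −0.76 for FBXO4, −0.65 for FAH, −0.59 for FAM135A, −0.59 for HPS1, −0.56 for PTAR1, −0.44 for TMTC4 and −0.41 for LATS2. Of these 21 genes, 15 lost the call under at least 1 of 8 alternatives, 10 of them without the experiment term and 5 whichever replicate was left out (TMTC4, RPS10, LATS2, INKA2 and HERPUD2-AS1), and 0 changed direction. HNRNPU, SNHG3, EIF4A2, TBRG1, NAPB and PTAR1 kept it under all 8.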

How the results depend on the processing

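The numbers of genes higher (4642) and lower (4698) in HP RNA stayed within 1.5 times under every alternative run, at 3459 to 5249 and 3699 to 4707, and no gene called in both fits had the opposite sign. Leaving out 1 experiment gave 3799 to 4141 higher and 4161 to 4393 lower genes, and 729 to 754 and 711 to 775 of at least 2-fold. The 841 genes higher by at least 2-fold became 550 with DESeq2 and 367 with a minimum count of 50, and the 755 lower ones 452 with that minimum, which tests fewer genes (12744). Of 2799 alternative values of the 235 named genes in HP RNA, 26 lost the call, 2 gained it and 0 changed direction.

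Without the replicate block, that is without pairing by experiment, 4055 genes were higher and 4182 lower (820 and 759 of at least 2-fold), and 8221 were called in both fits. HP/total depended more on the fit. Its 48 higher and 30 lower genes became 13 and 13 without the pairing, 97 and 43 with the culture as replicate block, 31 and 45 with DESeq2, 26 and 37 with DESeq2's size factors, and 73 and 30 with a minimum count of 50. Leaving out 1 experiment gave 15 to 21 higher and 3 to 35 lower: 15 and 35 without replicate 1, 21 and 13 without replicate 2, 15 and 3 without replicate 3. The cause was not tested.

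With 3 experiments and 2 residual degrees of freedom, small p-values in HP RNA rest on a spread shared across genes; a robust shared spread called 4654 higher and 4707 lower. Changes of genes with few counts are the least certain in size.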

Other observations

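Beside the genes described, long noncoding RNAs of moderate level changed in HP RNA; they were chosen after their values were seen. DANCR rose by 1.26 on the log2 scale, and the divergent transcript ZNF496-DT by 1.93. TMEM147-AS1 rose by 1.62 and GBX2-AS1 by 1.52. UCA1 fell by 0.88 and LINC00205 by 1.00. ODC1, ornithine decarboxylase, which starts polyamine synthesis, rose by 0.59 in HP RNA and had 0.06 in total RNA (HP/total 0.56).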
